A study of Homo sapiens with 4 samples.

Results

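NEAT1 and MALAT1 are neighbouring long noncoding RNA genes on human chromosome 11, and their locus was taken as the 300 kb window of hg19 between 65.1 and 65.4 Mb. It was examined in H3K27ac HiChIP libraries of 4 colorectal cancer cell lines, SW620, SW480, HCT116 and LS513. Its members were all filtered loops, and all pairs of an anchor with itself, that had an anchor midpoint in the window. These were 556 of 184225 filtered loops and 45 of 72787 same-anchor pairs over the 4 libraries. The filtered loops numbered 183 in SW620, 14 in SW480, 117 in HCT116 and 242 in LS513. NEAT1 starts at 65.19 Mb and MALAT1 at 65.265 Mb, so that 75 kb separate the start sites. An anchor is a chromosome segment that the authors used as a loop end, and a paired-end tag (PET) is a read pair that joins 2 anchors.

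All 4 lines were untreated, came from ATCC and gave 1 library each. SW620 was derived from a lymph node metastasis and SW480 from the primary tumour of the same patient, while HCT116 and LS513 come from other patients. Per the labels, each library was fixed in 1% formaldehyde for 10 minutes and quenched in 0.125 M glycine for 5 minutes. Chromatin was then cut with MboI, biotin-filled, ligated, pulled down with an H3K27ac antibody and made into a library with Tn5. A line is a single culture here, so no difference between lines has a replicate check and no p-value was computed.

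Both genes make RNAs that stay in the nucleus. NEAT1 RNA is the scaffold of paraspeckles, nuclear bodies that hold RNA-binding proteins, and its transcription responds to cell stress, including p53 and hypoxia signalling. MALAT1 RNA is among the most abundant nuclear transcripts, gathers in splicing speckles and releases a small tRNA-like RNA, mascRNA, from its end. H3K27ac marks active promoters and enhancers. HiChIP ligates DNA ends that lie close together in the nucleus and keeps those bound to the mark, so a loop's PET count depends both on contact and on how much acetylated chromatin its anchors hold. It gives no RNA level, and the identity of the lines was not checked against marker genes.

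In the gene table used for names, which follows GRCh38.p14, the protein-coding genes before NEAT1 are CDC42EP2, DPF2, TIGD3, FRMD8 and SLC25A45. In the order of the table, MIR612, FAUP4, ENEMAL and LINC02736 are listed after NEAT1 and before MALAT1. The antisense RNA gene TALAM1 and the mascRNA gene follow the MALAT1 entry. Anchors are given below by hg19 position and were assigned to no gene other than NEAT1 and MALAT1, whose anchors lay within 2 kb of the start site.

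RefSeq lists 2 promoter windows of 300 bases for MALAT1 on the + strand of chromosome 11, with starts 1307 bases apart in GRCh38.p14. Both are shown because the MALAT1 anchor was the end with most loop PETs in the locus in every library. Capitals mark the motifs found among 5 that were searched on both strands: GATC (the MboI site), GGGCGG (a GC box, CCGCCC on the other strand), TGANTCA (an AP-1 site), CACGTG (an E-box) and TATAAA.
MALAT1 window 1, chr11:65497488-65497787: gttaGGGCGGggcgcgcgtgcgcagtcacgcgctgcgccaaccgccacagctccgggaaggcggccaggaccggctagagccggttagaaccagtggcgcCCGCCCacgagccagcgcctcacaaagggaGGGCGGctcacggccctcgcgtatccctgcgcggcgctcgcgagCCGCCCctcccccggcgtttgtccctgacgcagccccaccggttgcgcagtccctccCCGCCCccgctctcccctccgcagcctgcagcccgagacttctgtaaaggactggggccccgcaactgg
MALAT1 window 2, chr11:65498795-65499094: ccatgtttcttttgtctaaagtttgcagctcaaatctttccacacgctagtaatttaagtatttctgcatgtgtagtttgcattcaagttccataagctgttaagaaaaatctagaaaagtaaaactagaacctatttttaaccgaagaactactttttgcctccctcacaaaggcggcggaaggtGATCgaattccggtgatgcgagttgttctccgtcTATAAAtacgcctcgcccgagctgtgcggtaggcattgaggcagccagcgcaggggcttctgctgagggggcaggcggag
The first window had a GC content of 73.7% and 5 GC boxes, and none of the other motifs. The second had a GC content of 46.0%, with 1 GATC at position 187 and 1 TATAAA at position 221, counted from 1 at the window's 5′ end. Of 35116 promoter windows of the same length, 45.0% held a GC box, 41.7% GATC, 11.5% TATAAA, 7.71% the AP-1 letters and 7.26% the E-box. These matches describe letters only and were not tied to the HiChIP signal.

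The locus stood near the top of the loop signal in all 4 lines. It held 531 PETs of 152421 filtered PETs in SW620, 66 of 13885 in SW480, 308 of 81579 in HCT116 and 897 of 222113 in LS513. Scaled to 1000000 filtered PETs of the library (normalised PETs), these were 3484 in SW620, 4753 in SW480, 3775 in HCT116 and 4038 in LS513. The Clopper-Pearson 95% intervals were 3194 to 3793 in SW620, 3678 to 6043 in SW480, 3366 to 4221 in HCT116 and 3779 to 4311 in LS513. These intervals, and the limits set by a count of 0, reflect counting error alone, because PETs carry no molecular identifiers and are not independent molecules. Among 300 kb windows of the genome with loop PETs, the locus ranked 10th of 4779 in SW620, 27th of 2219 in SW480, 16th of 4490 in HCT116 and 14th of 4899 in LS513. Of all chromosome 11 PETs it took 4.03% in SW620, 7.73% in SW480, 6.03% in HCT116 and 6.32% in LS513. The 300 kb locus was thus high in each line, including the shallow SW480 library. A count of 0 allows up to 19.7 normalised PETs in SW620, 216 in SW480, 36.8 in HCT116 and 13.5 in LS513.

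The loop signal of the locus was compared within 2 pairs of lines. Its rate in SW620 was 0.733 times that in SW480 (exact conditional 95% interval 0.567 to 0.962), and its rate in HCT116 was 0.935 times that in LS513 (0.819 to 1.07). Neither reached 2-fold over all locus loops. With both anchors inside the locus, SW620 was past 2-fold lower than SW480 (0.464, 0.353 to 0.618), while HCT116 was at 0.921 times LS513 (0.782 to 1.08). Across 300 kb windows with at least 10 PETs in the library with the higher rate, 69.4% were at least 2-fold higher and 11.9% at least 2-fold lower in SW620 than in SW480. This minimum stands for 65.6 normalised PETs in SW620 but 720.2 in SW480, so it admits more windows that are high in SW620. With the rate of 720.2 asked of either library, a rule added after seeing the data, 38.7% of 802 windows were at least 2-fold higher and 37.7% at least 2-fold lower in SW620. Between HCT116 and LS513, 8.72% were at least 2-fold higher and 13.7% at least 2-fold lower in HCT116, and with the same minimum rate in both libraries 10.8% were higher and 8.45% lower. The highest of the 4 rates at the locus, that of SW480, was 1.36 times the lowest, that of SW620. With all PETs on 1 chromosome as the scale, same-anchor PETs included, the locus ratio of SW620 to SW480 turned to 1.15 (0.893 to 1.51), and that of HCT116 to LS513 was 0.590 (0.516 to 0.672). Scaled to chromosome 11, the ratio of SW620 to SW480 was 0.522 (0.403 to 0.684). With loops under the FDR of 0.01 in the authors' deposited table alone, it was 0.544 (0.401 to 0.755) for SW620 to SW480 and 1.22 (1.03 to 1.44) for HCT116 to LS513. Anchors numbered 24555 in SW620 and 9350 in SW480, and the part of this in the ratio was not tested.

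**Figure D1:**
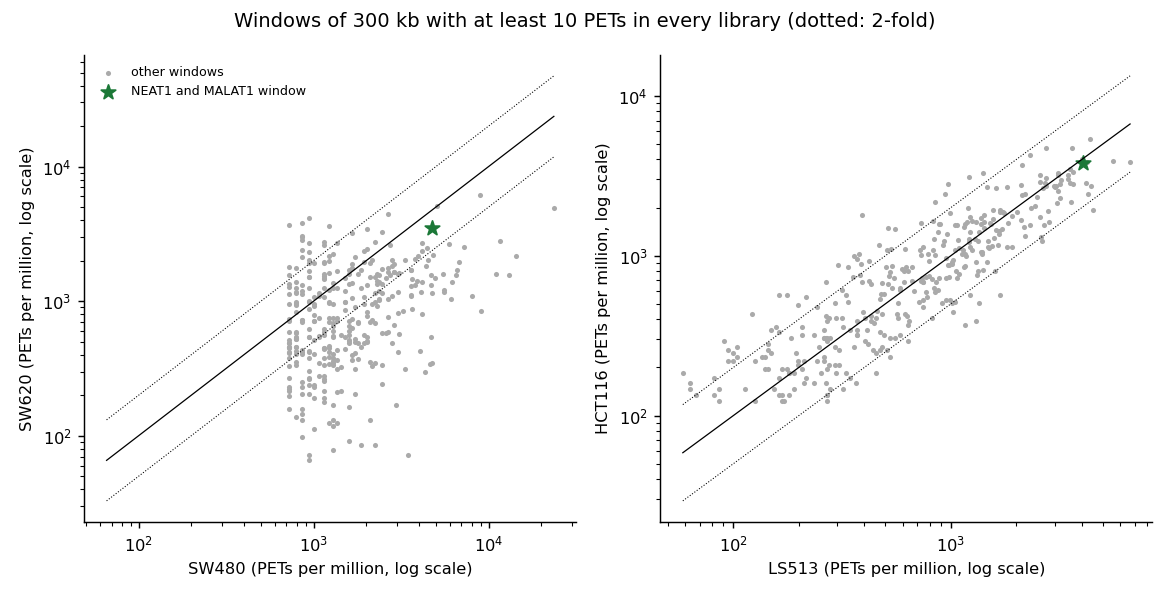
Normalised loop PETs (per 1000000 filtered PETs) in 300 kb windows with at least 10 PETs in every library, with SW620 against SW480 on the left and HCT116 against LS513 on the right (log scales; solid line, equal rates; dotted lines, 2-fold). The star marks the NEAT1 and MALAT1 window, which lies between the dotted lines in both panels. The minimum of 10 PETs stands for 720.2 normalised PETs in SW480, so no window lies below that value there, and the locus is at 3484 in SW620 and 4753 in SW480, and at 3775 in HCT116 and 4038 in LS513.

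The 3 windows most like the locus over the 4 libraries, by Euclidean distance of log2 normalised PETs among the 356 with at least 10 PETs in every library, were all on chromosome 17. They spanned 43.2 to 43.5 Mb (distance 0.915), 79.8 to 80.1 Mb (0.964) and 77.7 to 78 Mb (0.966). The measure rests on 4 values per window and describes signal height only.

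Same-anchor PETs, which count ligations within an anchor and follow its acetylated signal and length, were summed over the locus too. They were 1891 in SW620, 255 in SW480, 1454 in HCT116 and 2269 in LS513. Per 1000000 same-anchor PETs these were 2239 in SW620, 1954 in SW480, 1685 in HCT116 and 1636 in LS513. SW620 was highest on this scale and lowest for loop PETs, and SW480 was highest for loop PETs.

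The locus held 15 anchors in SW620, 6 in SW480, 12 in HCT116 and 12 in LS513. Their summed length was 174 kb in SW620, 67.2 kb in SW480, and 125 kb in both HCT116 and LS513. All 12 anchors of HCT116 and LS513 had identical ends. Of the SW620 anchors 1, chr11:65291632-65295528, had the same ends as in those lines, and of the SW480 anchors none did. Merging overlapping anchors of the 4 libraries gave 16 sites, of which 4 were present in every library, 4 in 3, 2 in 2 and 6 in 1. The 4 common sites were one before NEAT1 at chr11:65138312-65165409, the NEAT1 site at chr11:65181549-65199600, the MALAT1 site at chr11:65236903-65278218 and one after MALAT1 at chr11:65317673-65357699. The sites were defined after the data had been seen. Each of the 6 sites found in 1 library belonged to SW620.

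Most of the locus signal stayed inside the window. Loops with both anchors inside carried 321 of 531 PETs in SW620 (60.5%), 63 of 66 in SW480 (95.5%), 205 of 308 in HCT116 (66.6%) and 606 of 897 in LS513 (67.6%). The same share was not computed for other 300 kb windows, so these values cannot be called high or low. Single-PET loops were 63.9% of the locus loops in SW620, 35.7% in SW480, 69.2% in HCT116 and 59.5% in LS513. Over all filtered loops the shares were 61.9% in SW620, 64.3% in SW480, 66.5% in HCT116 and 56.9% in LS513. Loops with an FDR under 0.01 in the authors' deposited table were 27.3% of the locus loops in SW620, 35.7% in SW480, 21.4% in HCT116 and 26.03% in LS513. In the authors' deposited table these shares were 17.2% in SW620, 14.5% in SW480, 12.8% in HCT116 and 18.2% in LS513 over all loops.

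**Figure D2:**
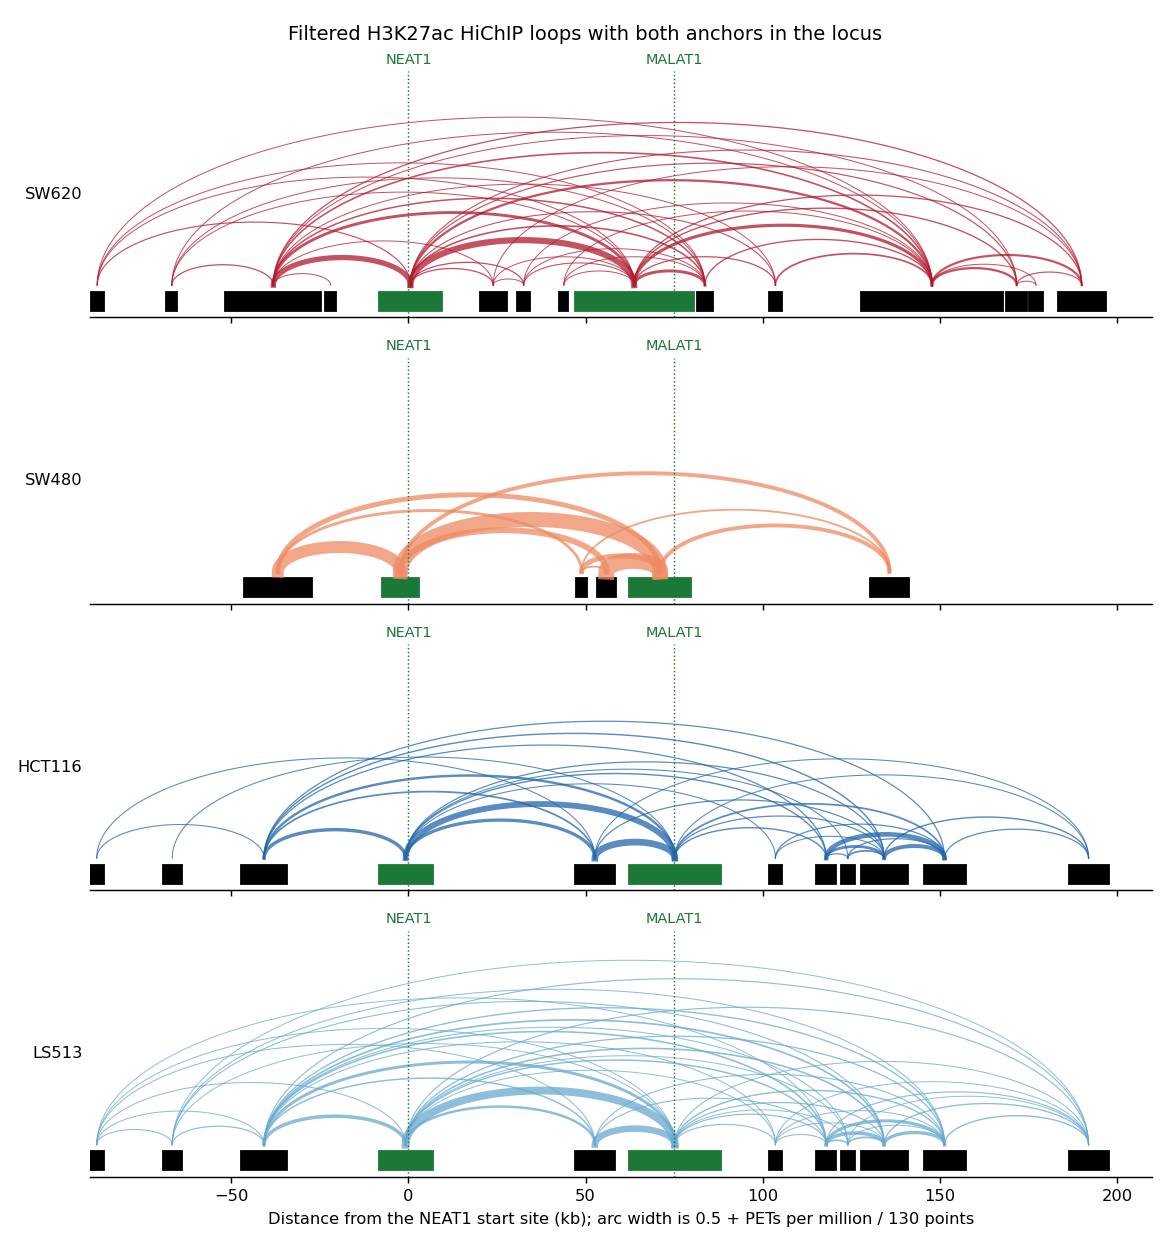
Filtered loops with both anchors in the locus, one panel per library, against distance from the NEAT1 start site in kb. Arcs join anchor midpoints with a line width that grows with normalised PETs, boxes are anchors (green, NEAT1 and MALAT1), and dotted lines are start sites. The NEAT1 to MALAT1 arc is among the widest in every panel (58 PETs in SW620, 14 in SW480, 29 in HCT116 and 111 in LS513), and only HCT116 and LS513 have arcs from an anchor about midway between MALAT1 and the end of the site after it.

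The loop between NEAT1 and MALAT1 was the strongest loop of NEAT1 in all 4 libraries. It had 58 PETs in SW620, 14 in SW480, 29 in HCT116 and 111 in LS513. In normalised PETs this was 380.5 in SW620, 1008 in SW480, 355.5 in HCT116 and 499.7 in LS513. Its ends lay 63.1 kb apart in SW620, 73.2 kb in SW480, and 76.0 kb in HCT116 and LS513, measured between anchor midpoints. Among filtered loops whose span was within a factor of 1.2, at least as many PETs were seen in 9 of 4889 in SW620 (0.184%), 8 of 751 in SW480 (1.07%), 10 of 3562 in HCT116 (0.281%) and 5 of 5725 in LS513 (0.0873%). The authors' deposited table gave this loop an FDR of 0 in every library.

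The MALAT1 side of that loop was divided differently in the libraries. In SW620 a single anchor, chr11:65236903-65270534, covered the MALAT1 start and the chromatin before it. In HCT116 and LS513 the same stretch was held by 2 anchors, chr11:65236903-65248342 and the MALAT1 anchor at chr11:65252117-65278218. In SW480 it was held by 3, with the MALAT1 anchor at chr11:65252117-65269820. PETs between those pieces are loops in the other libraries and same-anchor PETs in SW620. The reverse held for the SW620 anchor chr11:65271389-65275955, which lies inside the MALAT1 anchor of HCT116 and LS513. Its PETs with the MALAT1 anchor are loops in SW620, while such PETs are same-anchor PETs in HCT116 and LS513. With the pieces merged into the MALAT1 site, NEAT1 to MALAT1 PETs were 66 in SW620, 19 in SW480, 43 in HCT116 and 136 in LS513. In normalised PETs these were 433 in SW620, 1368 in SW480, 527 in HCT116 and 612 in LS513. SW620 had 0.316 times the rate of SW480 (0.188 to 0.558), and HCT116 0.861 times that of LS513 (0.596 to 1.22). The other pairs of common sites seen in every library were lower in SW620 than in SW480 too, with ratios from 0.398 to 0.683. Among them, only the pair of NEAT1 with the site before it had an interval below 1 (0.204 to 0.849). A lower rate in SW620 was thus not particular to the NEAT1 to MALAT1 contact.

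NEAT1 had 30 partner anchors on chromosome 11 in SW620, 5 in SW480, 19 in HCT116 and 32 in LS513. These partners are the distinct anchors joined to the NEAT1 anchor by filtered loops, which span 5 kb to 2 Mb. Of these partners, 17 in SW620, 1 in SW480, 12 in HCT116 and 20 in LS513 rested on a single PET. Partners with an FDR under 0.01 in the authors' deposited table were 9 in SW620, 3 in SW480, 7 in HCT116 and 9 in LS513. The order of these counts was that of the filtered PETs of the libraries. Thinned to the PETs of SW480, the expected numbers were 6.83 in SW620, 5 in SW480, 6.27 in HCT116 and 6.30 in LS513. With pairs of any distance on the chromosome, NEAT1 had 37 partners in SW620, 5 in SW480, 26 in HCT116 and 42 in LS513.

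MALAT1 had 40 partner anchors on chromosome 11 in SW620, 6 in SW480, 19 in HCT116 and 38 in LS513. A single PET carried 23 of them in SW620, 1 in SW480, 9 in HCT116 and 20 in LS513. By the FDR in the authors' deposited table, 15 partners were under 0.01 in SW620, 3 in SW480, 7 in HCT116 and 12 in LS513. After thinning, 8.67 were expected in SW620, 6 in SW480, 7.05 in HCT116 and 7.06 in LS513. At any distance MALAT1 had 55 partners in SW620, 7 in SW480, 25 in HCT116 and 54 in LS513. With the filtered PET total matched, and anchor sets left as they were, the numbers lay within a range of 5 to 6.83 for NEAT1 and 6 to 8.67 for MALAT1, with SW480 the lowest for each gene.

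Both genes were among the anchors with many partners, against a median of 4 per anchor in SW620, 1 in SW480, 3 in HCT116 and 5 in LS513. At least as many partners as NEAT1 were held by 0.228% of anchors in SW620, 6.83% in SW480, 0.834% in HCT116 and 0.718% in LS513. For MALAT1 the shares were 0.0244% in SW620, 4% in SW480, 0.834% in HCT116 and 0.253% in LS513. In SW620 only 6 of 24555 anchors, MALAT1 included, had 40 partners or more. The most, 44, belonged to another anchor of the locus, chr11:65317834-65357699 after MALAT1. The overlapping anchor chr11:65317673-65330867 had 21 partners in HCT116, above both genes, and 36 in LS513, above NEAT1 and below MALAT1. In SW480 the anchor at that site had 3, fewer than either gene. Many partners were thus not particular to the 2 genes. By loop PETs, NEAT1 lay within the top 0.236% in SW620, 0.684% in SW480, 0.488% in HCT116 and 0.375% in LS513. MALAT1 lay within the top 0.167% in SW620, 0.428% in SW480, 0.219% in HCT116 and 0.176% in LS513. The gene anchors were also long, at 10.4 to 18.1 kb for NEAT1 and 17.7 to 33.6 kb for MALAT1, against a median anchor of 4.33 kb in SW620, 5.24 kb in SW480, 4.52 kb in HCT116 and 4.50 kb in LS513. Per kb of anchor, the share of anchors with at least as many loop PETs as NEAT1 was 1.87% in SW620, 0.460% in SW480, 2.54% in HCT116 and 1.81% in LS513. For MALAT1 it was 6.30% in SW620, 1.40% in SW480, 5.68% in HCT116 and 4.07% in LS513. Per kb of anchor the partner counts were less unusual: at least as many partners as NEAT1 were held by 13.5% of anchors in SW620, 13.4% in SW480, 15.3% in HCT116 and 17.02% in LS513. For MALAT1 this share was 24.6% in SW620, 24.8% in SW480, 35.8% in HCT116 and 31.1% in LS513. By loop PETs per kb, NEAT1 ranked above MALAT1 in all 4 libraries, the reverse of their order by total loop PETs.

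**Figure D3:**
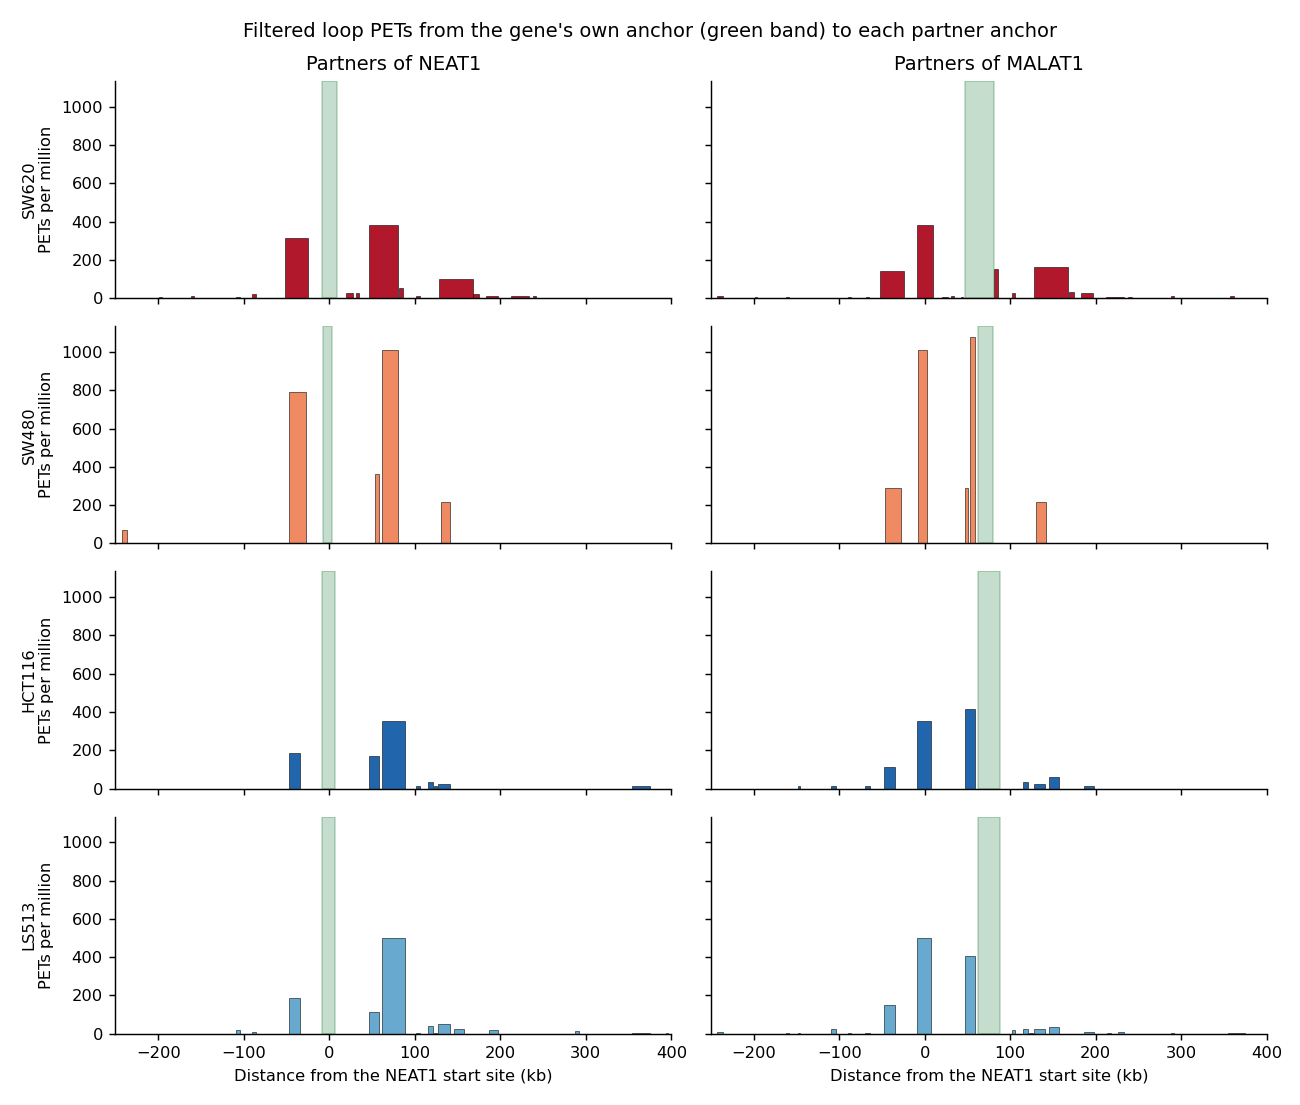
Normalised filtered loop PETs (per 1000000 filtered PETs) from the NEAT1 anchor (left) and the MALAT1 anchor (right) to each partner, against distance from the NEAT1 start site in kb, with bars as wide as the partner anchor and the gene's own anchor as a green band. NEAT1 has its tallest bar at MALAT1 in every library (380.5 normalised PETs in SW620, 1008 in SW480, 355.5 in HCT116 and 499.7 in LS513).

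A few partners carried most of each gene's signal. The NEAT1 anchor had 170 loop PETs in SW620, 34 in SW480, 79 in HCT116 and 241 in LS513, and its 3 strongest loops took 71.2% in SW620, 88.2% in SW480, 73.4% in HCT116 and 73.4% in LS513. After MALAT1, its second loop in each library went to the site before it, with 48 PETs in SW620, 11 in SW480, 15 in HCT116 and 41 in LS513. In normalised PETs this was 314.9 in SW620, 792 in SW480, 184 in HCT116 and 185 in LS513. SW620 was 1.71 times as high as HCT116 (0.943 to 3.29) and 1.71 times as high as LS513 (1.10 to 2.65) at this contact. The anchor before NEAT1 was 27.1 kb long in SW620, 19.3 kb in SW480 and 12.8 kb in HCT116 and LS513, and the part of that length in the difference was not tested. Its next strongest loop went to the site after MALAT1 in SW620 (15 PETs), and to the anchor just before MALAT1 in SW480 (5 PETs), HCT116 (14 PETs) and LS513 (25 PETs).

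MALAT1 contacts pointed mostly back toward NEAT1. The MALAT1 anchor had 186 loop PETs in SW620, 41 in SW480, 100 in HCT116 and 306 in LS513. Partners before it took 56.5% of these in SW620, 92.7% in SW480, 84.0% in HCT116 and 85.9% in LS513. On the merged MALAT1 site, partners before it took 66.8% of PETs in SW620 (59.7 to 73.5), 86.7% in SW480 (69.3 to 96.2), 75% in HCT116 (65.1 to 83.3) and 79.2% in LS513 (74.0 to 83.8). SW620 was lowest on both counts, and its interval on the merged site lay below that of LS513 alone. Within the MALAT1 site, the contact of the MALAT1 anchor with chr11:65236903-65248342 was the strongest MALAT1 loop in SW480 (15 PETs, to chr11:65243097-65248656) and HCT116 (34 PETs), and the second in LS513 (90 PETs). In SW620 the strongest MALAT1 loops after that with NEAT1 went to chr11:65317834-65357699 (25 PETs) and to chr11:65271389-65275955 (23 PETs). The latter anchor belongs to the merged MALAT1 site, and its PETs count as after the MALAT1 anchor in the 56.5% of SW620. NEAT1 contacts went the other way, with only 37.6% of PETs before the NEAT1 anchor in SW620, 35.3% in SW480, 29.1% in HCT116 and 24.1% in LS513.

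Loops of 50 to 200 kb made up more of both genes' PETs than of all filtered PETs. For NEAT1 the share was 55.9% in SW620, 64.7% in SW480, 63.3% in HCT116 and 72.2% in LS513. For MALAT1 it was 63.4% in SW620, 51.2% in SW480, 48.0% in HCT116 and 55.6% in LS513. Over all filtered PETs the share was 35.7% in SW620, 36.1% in SW480, 33.8% in HCT116 and 35.1% in LS513. The NEAT1 to MALAT1 loop held 58 of 95 NEAT1 PETs of this class in SW620 and 14 of 22 in SW480. In HCT116 it held 29 of 50, and in LS513 111 of 174. Of MALAT1 PETs of this class it held 58 of 118 in SW620 and 14 of 21 in SW480. In HCT116 it held 29 of 48, and in LS513 111 of 170. The shares without this loop are not given here. The SW480 interval for MALAT1 (35.1 to 67.1) included the share over all filtered PETs. Beyond 200 kb, NEAT1 kept 11.2% in SW620, 2.94% in SW480, 17.7% in HCT116 and 10.8% in LS513, against 23.2% in SW620, 15.5% in SW480, 23.9% in HCT116 and 24.7% in LS513 over all PETs. MALAT1 kept 19.9% in SW620, 2.44% in SW480, 15% in HCT116 and 11.8% in LS513. The widest filtered loop of each gene had 1 PET in every library except for MALAT1 in HCT116, whose loop to chr11:63989177-64023742 had 3 PETs over 1259 kb. In HCT116, 18 of 1570 loops of similar span (1.15%) had as many PETs.

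The share of partners common to both genes was lowest in HCT116. Anchors joined to both NEAT1 and MALAT1 were 18 in SW620, 3 in SW480, 6 in HCT116 and 20 in LS513. As shares of the NEAT1 partners these were 60% in SW620, 60% in SW480, 31.6% in HCT116 and 62.5% in LS513. As shares of the MALAT1 partners they were 45% in SW620, 50% in SW480, 31.6% in HCT116 and 52.6% in LS513. The HCT116 share rests on 6 of 19 partners, and 12 of its 19 NEAT1 partners had a single PET. No other pair of anchors was compared, and the part of depth in these shares was not tested.

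Among the 4 common sites, only SW620 and LS513 had shares of contacts whose intervals did not overlap. The 6 pairs of these sites held 196 PETs in SW620, 43 in SW480, 88 in HCT116 and 272 in LS513. SW620 and LS513 had the most PETs and so the narrowest intervals, and at some pairs the widest gap lay between other libraries. The NEAT1 to MALAT1 pair took 33.7% in SW620 (Clopper-Pearson 95% interval 27.1 to 40.8), 44.2% in SW480 (29.1 to 60.1), 48.9% in HCT116 (38.1 to 59.8) and 50% in LS513 (43.9 to 56.1). The intervals of SW620 and LS513 do not overlap, and those of all other pairs of libraries do. The pair of MALAT1 with the site after it took 15.3% in SW620 (10.6 to 21.1), 9.30% in SW480 (2.59 to 22.1), 10.2% in HCT116 (4.78 to 18.5) and 5.88% in LS513 (3.40 to 9.38). Again only SW620 and LS513 were apart. The pair of NEAT1 with the site before it took 24.5% in SW620 (18.6 to 31.1), 25.6% in SW480 (13.5 to 41.2), 17.0% in HCT116 (9.87 to 26.6) and 15.1% in LS513 (11.04 to 19.9), with all intervals overlapping. At the site after MALAT1, SW620 had a single anchor of 39.9 kb while HCT116 and LS513 each had 2, of 13.2 and 11.9 kb, and the part of this in the shares was not tested.

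**Figure D4:**
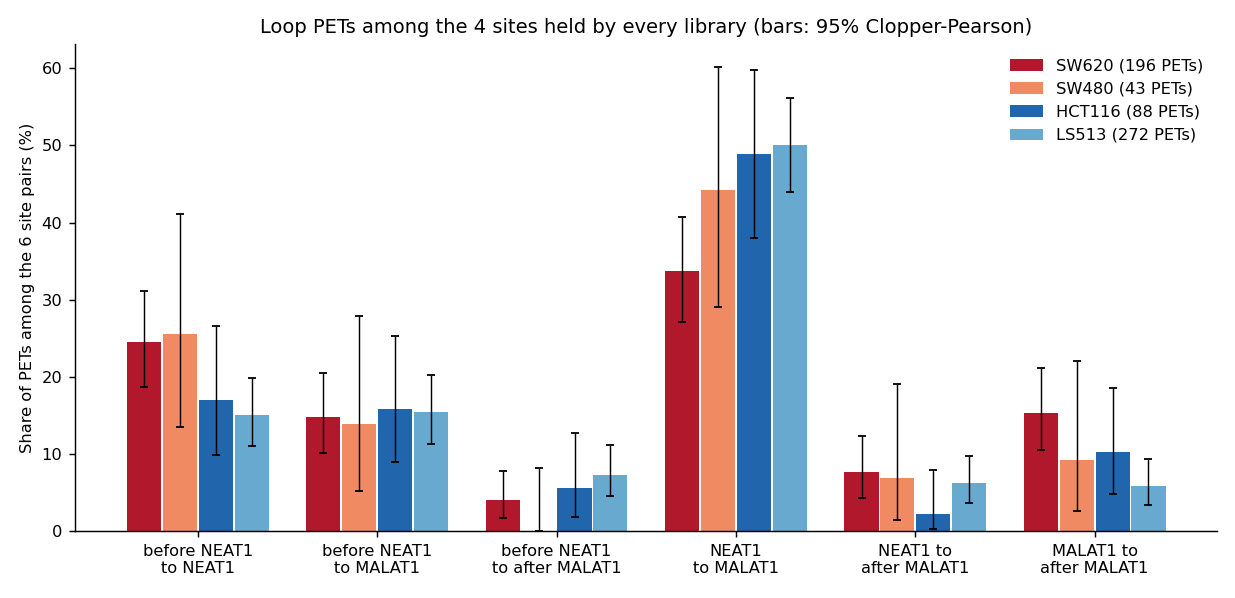
Share of loop PETs (%) that each of the 6 pairs of common sites took in each library, with Clopper-Pearson 95% intervals for counting error as bars and the number of PETs per library in the legend. NEAT1 to MALAT1 is the tallest group, from 33.7% in SW620 to 50% in LS513.

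The other sites were not present in every library, so their contacts could not be common to all 4. Of 55 site pairs with a PET, 5 had one in all 4 libraries, 7 in 3, 15 in 2 and 28 in 1. HCT116 and LS513, whose anchors were identical here, had 73 locus loops in common, which was 62.4% of the 117 in HCT116 and 30.2% of the 242 in LS513. The loops of HCT116 that LS513 lacked had at most 6 PETs, as did those of LS513 that HCT116 lacked. HCT116 had 81579 filtered PETs and LS513 222113, and the part of depth in this overlap was not tested. The share in common over all filtered loops is not given here, so the overlap cannot be called high or low.

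Same-anchor PETs at the genes were compared as a measure of local signal. The NEAT1 anchor had 160 in SW620, 43 in SW480, 125 in HCT116 and 248 in LS513. The MALAT1 anchor had 477 in SW620, 94 in SW480, 477 in HCT116 and 567 in LS513. Per 1000000 same-anchor PETs, NEAT1 had 189 in SW620, 329 in SW480, 145 in HCT116 and 179 in LS513. MALAT1 had 565 in SW620, 720.3 in SW480, 553 in HCT116 and 409 in LS513. SW620 lay below SW480 at NEAT1 (ratio 0.575, 0.408 to 0.825) and at MALAT1 (0.784, 0.627 to 0.989). With anchors within 10 kb of the start taken as the gene's, the MALAT1 ratio was 0.924 with an interval that included 1 (0.741 to 1.16). HCT116 lay above LS513 at MALAT1 (1.35, 1.19 to 1.53) and at 0.810 times its rate at NEAT1 (0.648 to 1.01).

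Between HCT116 and LS513 the identical anchors allowed a comparison free of anchor length. The largest same-anchor ratio of the 12 was at chr11:65236903-65248342, just before MALAT1, with 124 PETs in HCT116 against 89 in LS513, or 144 against 64.2 per 1000000 same-anchor PETs (ratio 2.24, 1.69 to 2.97). It was the only one of the 12 past 2-fold. Among 16475 identical anchors in the genome, 21.4% were at least 2-fold higher and 9.69% at least 2-fold lower in HCT116 than in LS513. The loop PETs of that anchor were 64 in HCT116 and 153 in LS513, or 784.5 against 689 normalised PETs (ratio 1.14, 0.837 to 1.53). For all 12 anchors the interval of the loop ratio included 1.

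The 2 genes differed in how much of their signal was in loops. Loop PETs divided by same-anchor PETs gave 1.06 in SW620, 0.791 in SW480, 0.632 in HCT116 and 0.972 in LS513 for NEAT1. For MALAT1 the quotient was 0.390 in SW620, 0.436 in SW480, 0.210 in HCT116 and 0.540 in LS513. The median over anchors with at least 10 PETs of each kind was 0.452 in SW620, 0.429 in SW480, 0.269 in HCT116 and 0.409 in LS513. NEAT1 lay above that median in every library, and MALAT1 lay close to it on either side. Anchors with at least the NEAT1 quotient were 12.9% in SW620, 15.2% in SW480, 13.7% in HCT116 and 14.6% in LS513. The MALAT1 anchor was longer than the NEAT1 anchor in every library, and the part of length in the quotient was not tested.

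**Figure D5:**
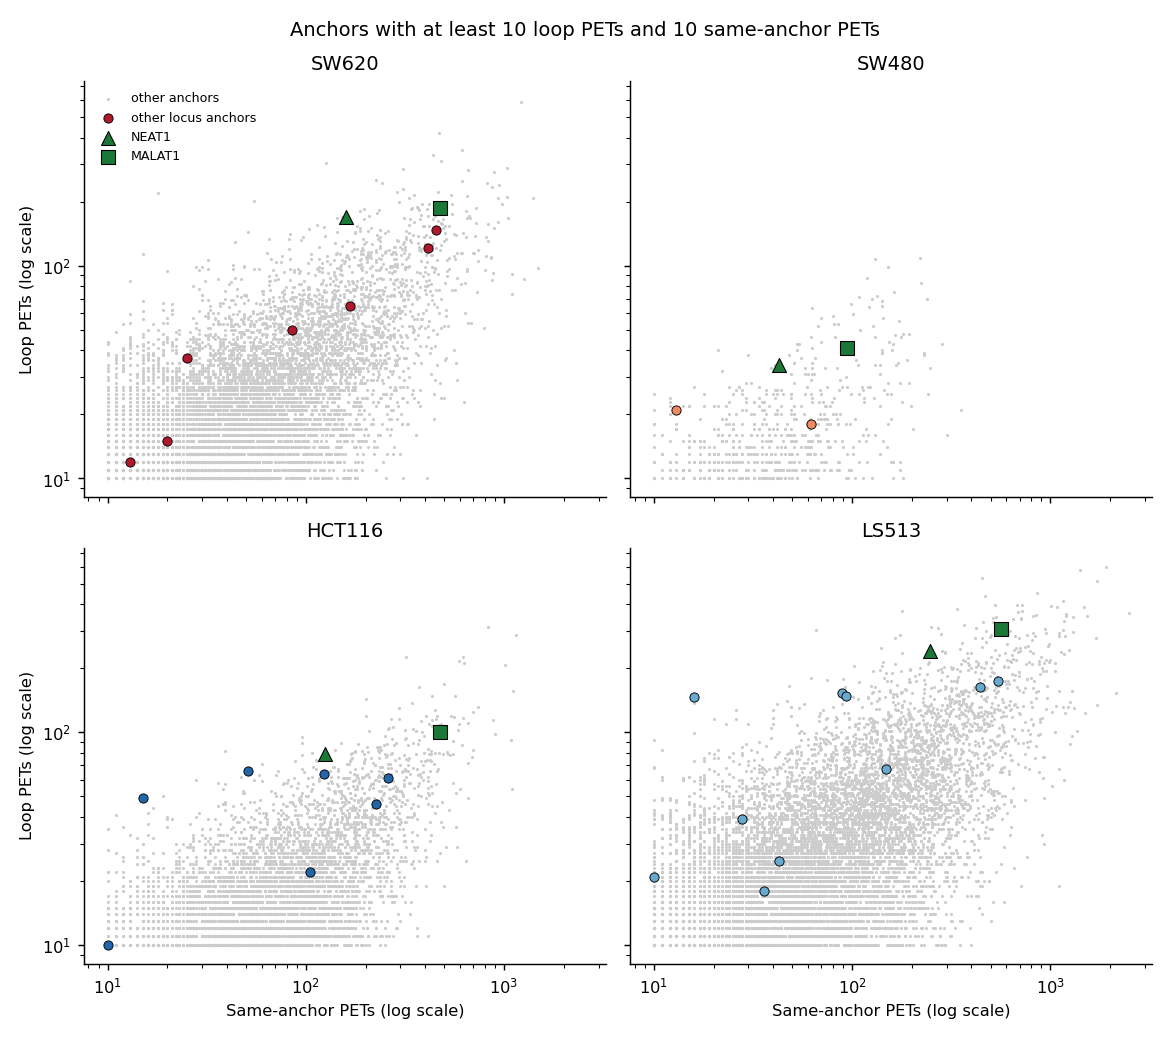
Loop PETs against same-anchor PETs for every anchor with at least 10 of each (log scales), one panel per library, with NEAT1 as a triangle, MALAT1 as a square and other anchors of the locus as coloured circles. NEAT1 lies above the bulk of anchors with similar same-anchor counts, and in HCT116 and LS513 one locus anchor with 15 and 16 same-anchor PETs reaches 49 and 146 loop PETs.

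The anchor chr11:65305080-65310732 after MALAT1, 5.65 kb long, was the extreme case of the locus. It had 15 same-anchor PETs and 49 loop PETs in HCT116, and 16 same-anchor PETs and 146 loop PETs in LS513. The quotient was 3.27 in HCT116, a value reached by 3 of 4699 anchors (0.0638%), and 9.13 in LS513, reached by 2 of 9562 (0.0209%), the anchor itself included. Most of its contacts were with the neighbouring site after MALAT1, with 33 PETs in HCT116 and 79 in LS513. It had 3 PETs with NEAT1 in HCT116 and 9 in LS513, and 3 with the MALAT1 site in HCT116 and 8 in LS513. Neither SW620 nor SW480 had an anchor there, so its contacts could not be counted in those lines. The anchor was singled out after its values had been seen.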

How the data were processed

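The 4 H3K27ac HiChIP libraries were processed by the authors with HiC-Pro against hg19 (GRCh37), per the submitters' processing notes. One deposited table is named for mango, a loop caller; its settings are not stated in the labels, nor is the source of the anchors. As deposited, the tables hold whole-number PET counts per pair of anchors, in 4 tables per library: pairs on 1 chromosome, filtered pairs of 5 kb to 2 Mb, pairs between chromosomes, and filtered pairs with a number from 0 to 1. That number carries no header and was taken for an FDR, that is, an adjusted p-value deposited by the authors. Starts, read as counting from 0, are given counting from 1.

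Loop PETs were scaled to 1000000 filtered PETs (normalised PETs) and same-anchor PETs to 1000000 same-anchor PETs of the library. Depth ranged from 13885 to 222113 filtered PETs. With 1 library per line no test was possible: ratios have exact conditional intervals and shares Clopper-Pearson intervals at 95%, for counting error only, and the fold threshold was 2 with at least 10 PETs. Named loops were the 3 with most PETs, the widest per gene and library, and the pair between the genes. The locus and the measures were chosen with earlier results of these data known. Window ratios were tried on simulated independent counts, which PETs are not, and no result here rests on that trial. Alternatives were other loop and FDR filters, scalings, thinning and, added later, merged sites. RefSeq promoters (GRCh38.p14) held 2 entries for MALAT1; no coordinate was converted between builds. The tools were scipy 1.17.1, pandas 2.3.3, matplotlib 3.10.9 and numpy 2.4.6 under Python 3.11.15.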

Additional observations from a re-analysis of the deposited data

How the results depend on the processing

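Of 118 alternatives over 22 results, 73 left the value within its counting interval or within 1.5 times for a count, 44 moved it further and 1 turned a ratio whose interval had lain below 1. The causes were not tested. The SW620 over SW480 locus ratio was 0.558 with loops of at least 2 PETs, 0.522 scaled to chromosome 11, 0.464 with both anchors inside and 0.544 under the authors' FDR (the authors' deposited table), and it turned to 1.15 scaled to all same-chromosome PETs. The HCT116 over LS513 ratio was 0.590 scaled to all same-chromosome PETs, 0.814 after thinning and 1.22 under the FDR of the authors' deposited table. NEAT1 partners with at least 2 PETs were 13 in SW620, 7 in HCT116 and 12 in LS513; under the FDR of the authors' deposited table they were 9, 7 and 9, with 3 in SW480, and in 1 thinned draw 8, 5 and 5 (expected 6.83, 6.27 and 6.30). MALAT1 partners with at least 2 PETs were 17 in SW620, 10 in HCT116 and 18 in LS513; under the FDR of the authors' deposited table they were 15, 7 and 12, with 3 in SW480, and in 1 thinned draw 11, 6 and 9 (expected 8.67, 7.05 and 7.06). Per kb of anchor, the SW620 over SW480 same-anchor ratio was 0.331 for NEAT1 and 0.413 for MALAT1. With merged sites, NEAT1 to MALAT1 PETs were 43 in HCT116 and 136 in LS513. With at least 30 PETs, 1017 windows were higher and 83 lower in SW620 than in SW480, against 1766 and 302, and 92 were higher and 181 lower in HCT116 than in LS513, against 255 and 400; 696 were lower in HCT116 with loops of at least 2 PETs. With the same minimum rate in both libraries, added after seeing the data, 310 were higher in SW620 and 199 lower in HCT116. No paired analysis was possible because each line had 1 library and no result came from a test. Depth limits SW480 most, where 3 PETs stand for 216 normalised PETs.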

Other observations

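Contacts of the locus with other chromosomes were almost all single. In SW620, 196 interchromosomal pairs held 204 PETs, in SW480 11 pairs held 11, in HCT116 99 pairs held 99, and in LS513 213 pairs held 215. Single PETs were also usual outside the locus. Over all interchromosomal pairs, 367 of 56008 in SW620 (0.655%) and 421 of 65649 in LS513 (0.641%) had at least 2 PETs. The NEAT1 anchor had 21 such partners in SW620, 1 in SW480, 9 in HCT116 and 33 in LS513, each with 1 PET. The MALAT1 anchor had 44 in SW620, 3 in SW480, 26 in HCT116 and 51 in LS513. The pair with most PETs joined MALAT1 to chr14:23621202-23627790 in SW620, with 5 PETs, a number reached by 17 of 56008 interchromosomal pairs of that library (0.0304%). In LS513 the MALAT1 anchor had 2 PETs with the overlapping anchor chr14:23621049-23627487. No PET of this kind was seen in SW480 or HCT116, each of which had 1 anchor at that place. The anchor chr11:65210129-65217681, which lies between NEAT1 and MALAT1 and was present in SW620 only, had 3 PETs with chr2:55449688-55453830.

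Contacts on chromosome 11 beyond 2 Mb joined NEAT1 to 7 anchors in SW620, 0 in SW480, 7 in HCT116 and 10 in LS513, all with 1 PET. For MALAT1 they numbered 15 in SW620, 1 in SW480, 6 in HCT116 and 16 in LS513. The strongest were to chr11:68062681-68107051 in SW620 (3 PETs), to chr11:47234252-47243369 in HCT116 (2 PETs) and to chr11:62419106-62424402 in LS513 (2 PETs).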
